A study of Homo sapiens with 12 samples.

Results

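The genes described here were 48 human genes, type I interferon targets and members of the MHC class I antigen presentation pathway, taken by gene symbol from the 60675 genes counted in each library. All 48 symbols matched a counted gene. The rule used no expression value. By role they comprised 4 RNA-binding effectors of the IFIT family, 6 antiviral effectors of the OAS and MX families, 8 other cytoplasmic and nuclear interferon-induced genes, 4 double-stranded RNA sensors and editing genes, 4 transcription factors, 5 genes of ISG15 and its conjugation, 3 genes of the PARP9-DTX3L axis, 4 membrane restriction factors and 10 genes of MHC class I presentation.

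Interferons bind receptors that signal through JAK kinases and STAT transcription factors, which enter the nucleus and switch on interferon-stimulated genes through a DNA element called the ISRE. Interferon gamma acts mainly through a second element, GAS, and through IRF1, and it raises the proteasome subunits, peptide transporters and HLA molecules by which cells display peptides to cytotoxic T cells. Prostate cancers often show low MHC class I, and loss of KDM1A, a histone demethylase, is known to induce interferon genes in other tumours. The series asked how inhibition of KDM1A with namoline and of KDM7A, another histone demethylase, with TCE-5002 changed the transcriptome of prostate cancer cells. The study states that TCE-5002 also targets the demethylases KDM7B and KDM2A, so its changes cannot be assigned to KDM7A alone. RNA from 12 libraries in 6 groups of 2 was sequenced after 72 h. Every group received 1 nM R1881, a synthetic androgen, and none was treated with interferon. C4-2 cells, a castration-resistant line derived from LNCaP and labelled LNCaP:C42, received R1881 alone, R1881 with 50 µM namoline, R1881 with TCE-5002, or R1881 with both inhibitors, here called the combination. LNCaP cells, an androgen-dependent prostate cancer line, received R1881 alone or R1881 with both inhibitors. The design text gives 100 µM TCE-5002 and the methods a lower dose, so the dose of TCE-5002 is uncertain.

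Library depth ranged from 14791602 to 20690819 counts. The libraries labelled LNCaP stood apart from C4-2 in prostate epithelial markers, with EPCAM at 4.01 and 3.51 CPM (counts per 1000000 counts of a library) under R1881 against 139 and 139 CPM in C4-2, and KLK3 at 397 and 355 against 206 and 228 CPM. Of the 12 markers 10 were higher in C4-2 by at least 2-fold at an adjusted p under 0.05, against 24.3% of all genes. By adjusted p alone 11 were higher and 1 was lower. These libraries are therefore called the libraries labelled LNCaP. The count column of the first library labelled LNCaP combination named namoline but not TCE-5002, so results on that group are also given without it. The pair of C4-2 TCE-5002 libraries differed most from each other, with a chi-square per gene of 40.9 against 4.69 to 13.9 in the other groups. The pair alone cannot show which library is unusual, so the median change with TCE-5002 is also given without each of them. The 13 immune cell markers together reached 1.09 to 4.96 CPM per library, and PTPRC, which marks all leukocytes, had 0 counts in 9 of the 12 libraries. The 9 fibroblast markers summed to 3.20 to 85.8 CPM, nearly all of it COL1A1 in C4-2 (49.5 and 50.9 CPM under R1881).

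Many of the promoters held the letters of the elements through which interferons act. RefSeq (GRCh38.p14) windows from 250 bases before to 50 bases after a transcript start were used for 37 of the 48 genes, as 48 windows. The genes without a window were IFIT2, OAS2, OASL, MX2, DHX58, IRF7, UBA7, USP18, IFITM2, HLA-E and NLRC5. The ISRE core GAAANNGAA was in 30 of these 48 windows (62.5%) on either strand, against 8.11% of all 35116 windows. The GAS letters TTCNNNGAA were in 13 windows (27.1%), against 7.66% of all. Matches of the 2 motifs can overlap, as in IFITM1. The windows below belong to genes that the combination moved in opposite directions in C4-2, IRF1 and TAP1 upwards and TAP2, IFIT1 and IFITM1 downwards, and capitals mark the motif matches on either strand.
IRF1 (chr5:132490724-132491023, minus strand): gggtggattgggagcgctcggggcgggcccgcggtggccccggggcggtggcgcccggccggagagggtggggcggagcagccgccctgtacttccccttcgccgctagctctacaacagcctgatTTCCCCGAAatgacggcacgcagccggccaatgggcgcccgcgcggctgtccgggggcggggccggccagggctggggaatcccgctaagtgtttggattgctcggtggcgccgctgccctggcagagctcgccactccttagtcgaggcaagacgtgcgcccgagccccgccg
TAP1 (chr6:32853655-32853954, minus strand): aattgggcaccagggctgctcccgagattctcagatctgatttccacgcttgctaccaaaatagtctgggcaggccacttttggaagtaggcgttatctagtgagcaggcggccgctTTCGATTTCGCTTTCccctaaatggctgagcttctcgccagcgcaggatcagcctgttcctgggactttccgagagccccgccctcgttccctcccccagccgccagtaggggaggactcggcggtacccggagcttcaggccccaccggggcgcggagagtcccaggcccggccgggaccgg
TAP2 (chr6:32838690-32838989, minus strand): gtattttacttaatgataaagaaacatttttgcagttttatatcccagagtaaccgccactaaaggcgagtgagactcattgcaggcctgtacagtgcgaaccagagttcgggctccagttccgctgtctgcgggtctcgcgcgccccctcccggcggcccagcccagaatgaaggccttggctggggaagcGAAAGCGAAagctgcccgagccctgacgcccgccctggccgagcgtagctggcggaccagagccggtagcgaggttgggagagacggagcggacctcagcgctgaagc
IFIT1 (chr10:89392373-89392672, plus strand): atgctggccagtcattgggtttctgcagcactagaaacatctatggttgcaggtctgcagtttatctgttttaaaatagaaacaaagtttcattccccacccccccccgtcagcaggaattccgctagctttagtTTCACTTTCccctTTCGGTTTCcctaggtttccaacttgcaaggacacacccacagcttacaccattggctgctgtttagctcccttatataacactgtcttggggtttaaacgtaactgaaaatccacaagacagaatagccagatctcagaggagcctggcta
IFITM1 (chr11:313790-314089, plus strand): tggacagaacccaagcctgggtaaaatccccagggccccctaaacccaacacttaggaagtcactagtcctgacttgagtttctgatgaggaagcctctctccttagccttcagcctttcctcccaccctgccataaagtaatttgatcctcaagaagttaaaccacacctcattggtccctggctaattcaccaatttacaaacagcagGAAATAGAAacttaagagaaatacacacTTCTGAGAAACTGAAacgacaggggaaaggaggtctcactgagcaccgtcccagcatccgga
IRF1 held 1 GAS match, starting at -124 from the transcript start, and no ISRE core. TAP1, TAP2 and IFIT1 held ISRE cores only in these windows, 2 in TAP1, 1 in TAP2 and 2 in IFIT1. Another TAP1 window, not shown, held 1 GAS match and no ISRE core. IFITM1 held 2 ISRE cores and 1 GAS match. Of genes with windows, 2 of 5 that rose with the combination in C4-2 held an ISRE core, against 6 of 9 that fell. Over all genes with windows the share was 9.86%. A GAS match was in 3 of 5 that rose and 3 of 9 that fell, against 9.38% of all genes with windows. The same letters thus stood in front of genes that rose and genes that fell, and a match of letters is a description, not a measured binding site.

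The 48 genes spanned a wide range of levels. In C4-2 under R1881, 10 genes were under 1 CPM, 15 lay between 1 and 10 CPM and 23 were above 10 CPM. In the libraries labelled LNCaP under R1881, 12 were under 1 CPM and 15 above 10 CPM. Per kilobase of gene model, BST2, which tethers budding virions, was the most abundant in C4-2 under R1881 (70.9 CPM per kb), followed by the RNA editing enzyme ADAR (48.4) and HLA-C (46.4). HLA-C led in the libraries labelled LNCaP (84.7 CPM per kb). B2M, the light chain of every MHC class I molecule, was at 261 and 228 CPM in C4-2 under R1881 and 137 and 125 CPM in the libraries labelled LNCaP.

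**Figure D1:**
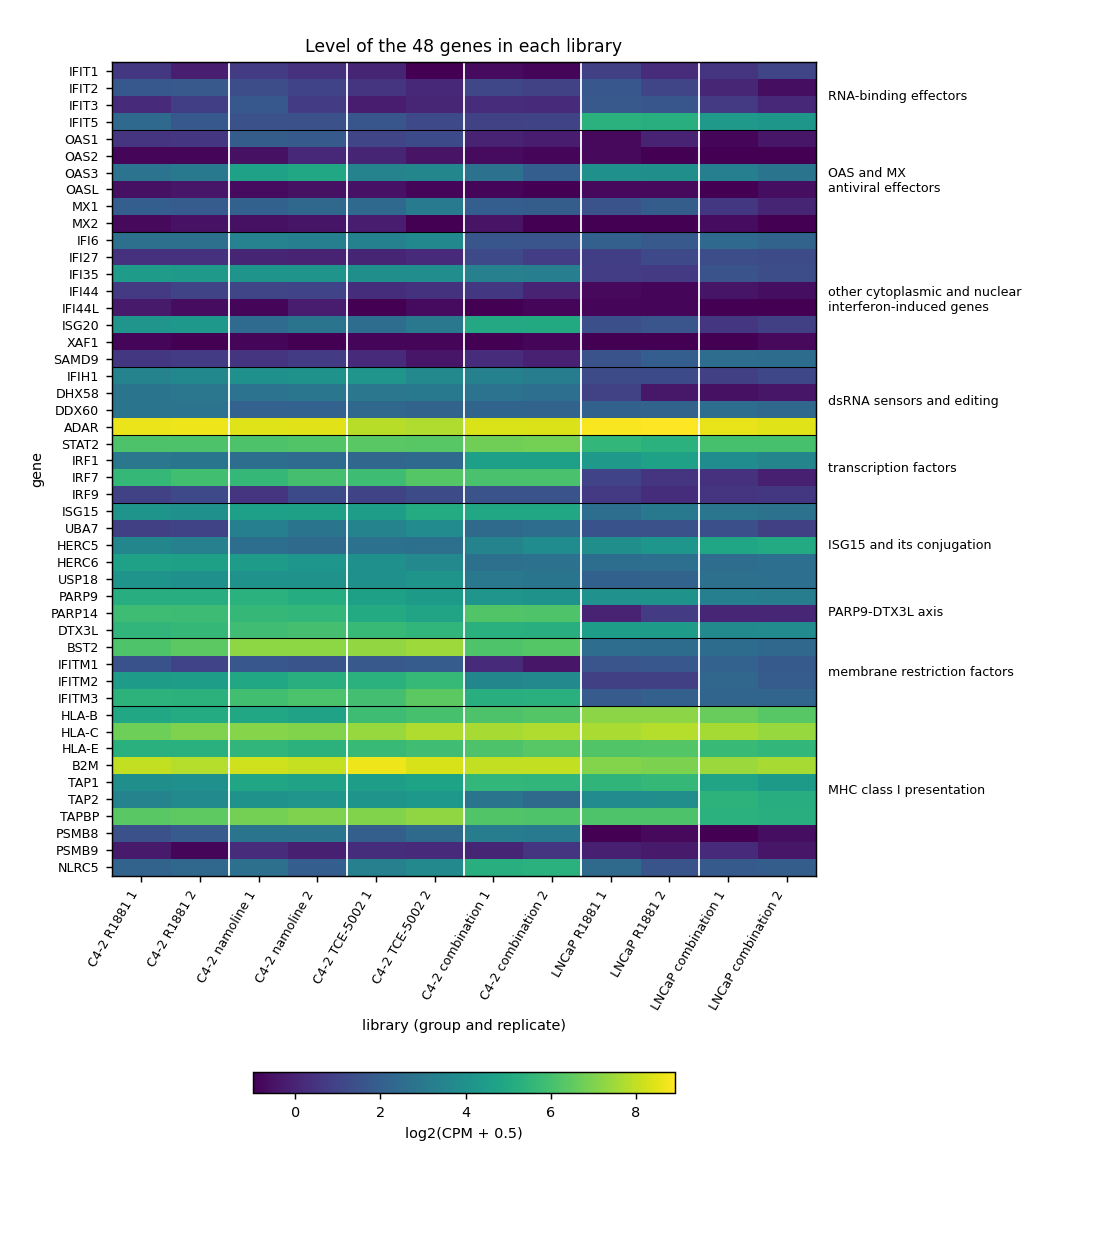
Level of each of the 48 genes, grouped by role, in each of the 12 libraries, as log2(CPM + 0.5). ADAR, B2M, HLA-C and TAPBP are bright in every library, OAS2, OASL, MX2, IFI44L and XAF1 are dark in every library, and IRF7, PARP14, BST2, IFITM2 and IFITM3 separate C4-2 from the libraries labelled LNCaP.

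Some of the interferon-induced genes were at or near the detection limit in every group, while others were well above it. In the C4-2 libraries ISG15 lay between 15.3 and 33.8 CPM and BST2 between 72.8 and 175 CPM. OAS2, OASL, MX2, IFI44L and XAF1 did not exceed 0.600 CPM in any library, where the CPM worth of 3 counts lay between 0.145 and 0.203, and they were too low to be tested in any comparison. PSMB9, an immunoproteasome subunit, reached at most 0.939 CPM. IFIT1, IFIT2 and IFIT3, which bind foreign RNA, were low but could be tested, and did not exceed 2.93 CPM in any library. The interferon genes themselves were barely counted. Of 14 interferon ligand genes, 11 to 13 had 0 counts in each group, the sum over all 14 was 0 to 6 counts per library, and IFNB1 had 0 to 3 counts. No ligand could be tested.

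A gene is said here to have risen or fallen when edgeR's quasi-likelihood test across all tested genes gave a Benjamini-Hochberg adjusted p under 0.05 and the change was at least 2-fold. Against R1881 alone in C4-2, namoline raised 4 of the 43 tested genes and lowered 2, where 5.16% of all tested genes rose and 6.90% fell. TCE-5002 likewise raised 4 and lowered 2 of 43, against 5.07% and 6.83% of all genes. The combination raised 7 and lowered 10 of 43, against 8.90% and 12.8% of all genes. In the libraries labelled LNCaP, where 38 of the 48 could be tested, the combination raised 2 and lowered 3, against 7.40% and 11.3% of all genes. The median log2 fold change of the genes tested was 0.18 with namoline, 0.32 with TCE-5002, -0.20 with both inhibitors in C4-2 cells and -0.17 with both in the libraries labelled LNCaP, whereas the medians over all genes lay between -0.03 and 0.00. For TCE-5002 the median was 0.35 without its first library and 0.33 without its second. With no library left out, no treatment raised more than 7 of the 48 genes past the threshold, and the changes differed between roles. With a correction for GC content, namoline raised 5 and lowered 1 and TCE-5002 raised 2 and lowered 2. The same correction gave 3 rises and 5 falls for the libraries labelled LNCaP and a median of 0.01, so that its sign turned. By adjusted p alone, with no fold limit, 17 of 43 genes passed with namoline, 14 higher and 3 lower, against 35.1% of all genes. TCE-5002 gave 28 of 43, 17 higher and 11 lower, against 36.8%. Both inhibitors in C4-2 gave 28 of 43, 13 higher and 15 lower, against 50.6%. In the libraries labelled LNCaP both gave 22 of 38, 8 higher and 14 lower, against 56.3%. Without its first library, TCE-5002 changed 16 genes in place of 6, the same 6 among them, raising 9 and lowering 7 of 44, where 6.37% of all genes rose and 6.19% fell. The 10 further genes were HLA-B, IFI6, IFITM3, ISG15 and MX1, which were higher, and HERC6, IFIT1, IFIT5, PARP14 and SAMD9, which were lower.

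**Figure D2:**
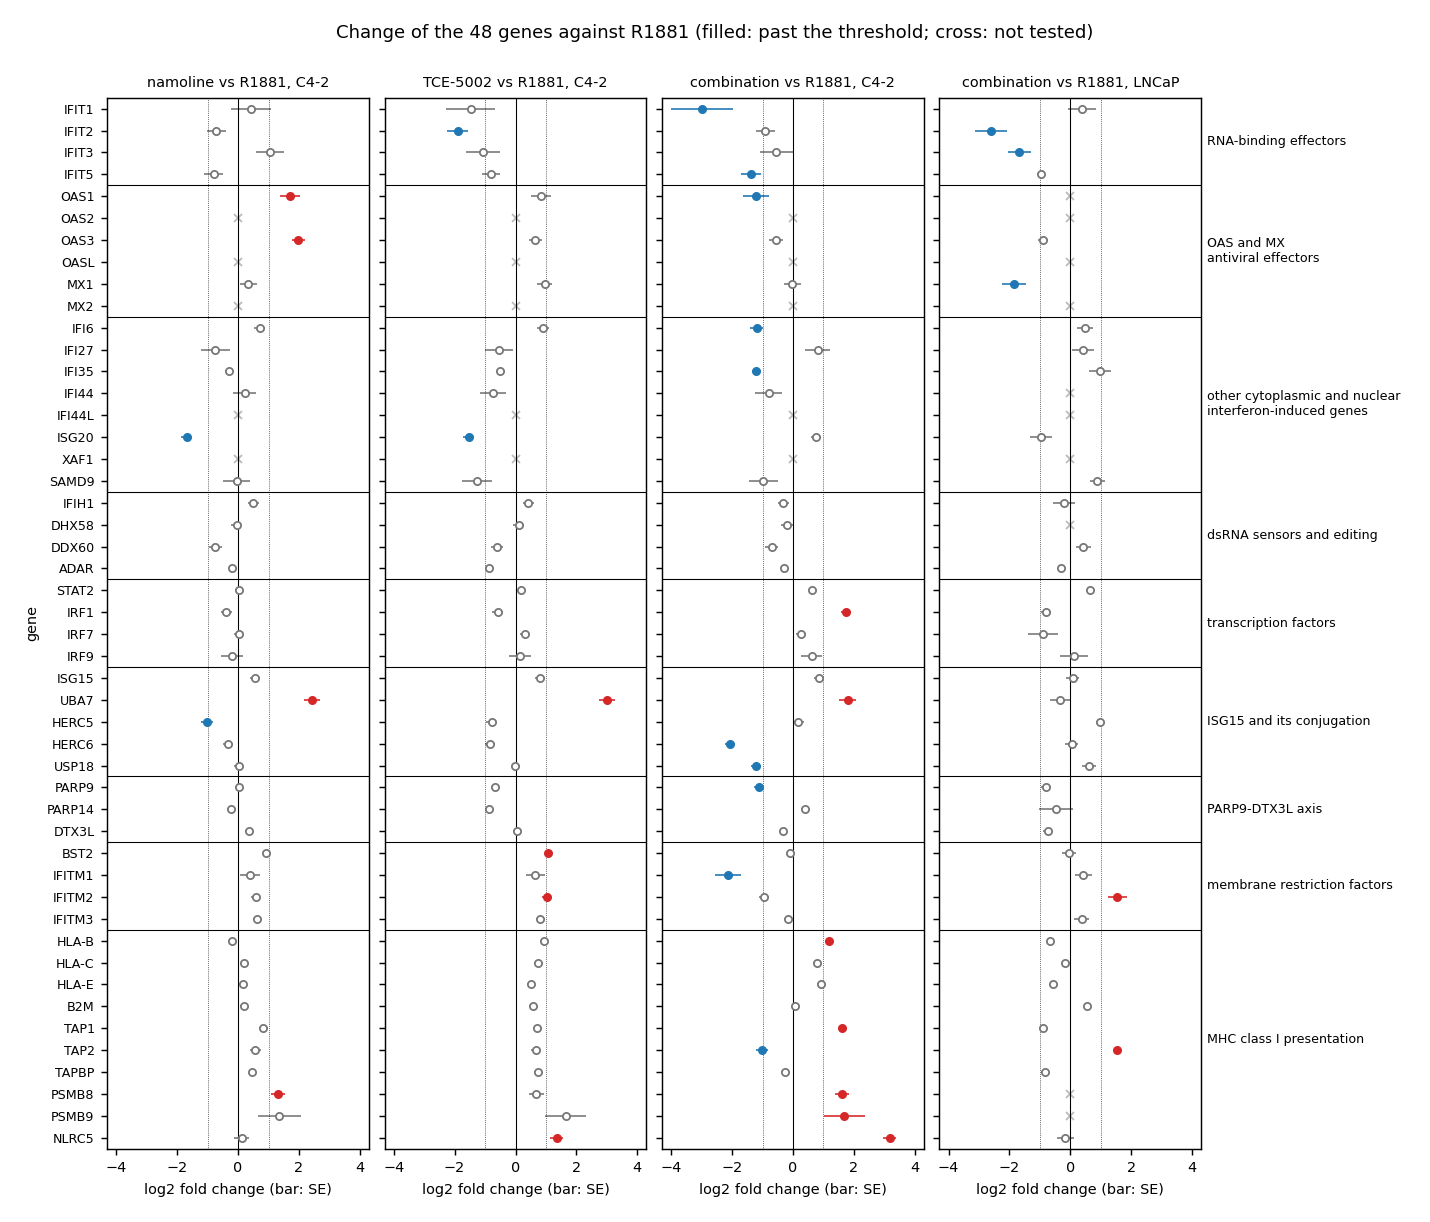
Log2 fold change against R1881 (points) with its SE (bars) for the 48 genes in the 4 comparisons against R1881, with filled points for genes past the threshold and crosses for genes not tested. In C4-2 under the combination, 5 MHC class I genes, IRF1 and UBA7 lie to the right of the 2-fold line while IFIT1, IFITM1, HERC6 and 7 others lie to the left.

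For 20 of the 43 genes the response to the 2 inhibitors together differed past the threshold from the sum of the single responses. The interaction, the log2 change under the combination minus the sum of the changes under each inhibitor, was positive past the threshold for 7 genes and negative for 13 of 43, where 16.8% and 18.6% of all genes were positive and negative. Its median over the 43 genes was -0.39. These libraries are bulk RNA, in which fewer cells of a type and less RNA per cell cannot be told apart. Prostate epithelial markers moved across the same groups: the 12 markers summed to 4278 and 4460.1 CPM in C4-2 under R1881, 4856 and 5193 with namoline, 6456 and 6363 with TCE-5002 and 2629.5 and 2619.6 with the combination. Under the combination 5 of the 12 fell and none rose, where 12.8% of all genes fell and 8.90% rose. The part of these markers in the changes described here was not tested.

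Among the transcription factors, IRF1, which drives MHC class I and proteasome genes, was the one that changed past the threshold in C4-2. It was at 7.08 and 6.7 CPM in C4-2 under R1881, 5.51 and 5.1 with namoline, 4.41 and 4.77 with TCE-5002 and 23.7 and 23.8 with the combination. The combination libraries lay more than 3-fold above all other C4-2 libraries, and the single-inhibitor libraries lay below the R1881 libraries (combination against R1881, log2 fold change 1.76 ± 0.16 SE, adjusted p = 6.1e-07). The interaction for IRF1 was 2.74 ± 0.25. STAT2 and IRF9 are subunits of the ISGF3 complex that binds the ISRE. STAT2 was at 71.6 and 71.6 CPM under R1881 and 109.6 and 115 with the combination, a log2 difference of 0.62 ± 0.11 that stayed under 2-fold. IRF9, which shares 48.4% of its exon bases with an overlapping gene model, was between 0.888 and 2.44 CPM in C4-2 with no change past the threshold. IRF7, the master regulator of interferon alpha genes, was at 48.1 and 60.3 CPM under R1881 and 66.8 and 66.4 with the combination, and no treatment of C4-2 moved it past the threshold.

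NLRC5, the transactivator of MHC class I genes, had the largest rise of the 48 genes in C4-2 under the combination. Its level was 3.94 and 4.55 CPM under R1881, 5.86 and 3.42 with namoline, 9.38 and 12.1 with TCE-5002 and 37.7 and 40 with the combination. It rose with TCE-5002 (log2 fold change 1.35 ± 0.22 SE, adjusted p = 2.8e-04) and further with the combination (3.17 ± 0.22, adjusted p = 2.7e-08), and the interaction was positive (1.70 ± 0.31). With namoline the pair of libraries straddled the R1881 values.

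MHC class I presentation was the role with the most rises under the combination in C4-2, 5 of 10 genes tested, with 1 fall. Its median log2 fold change was 1.05. The 33 other tested genes had 2 rises, 9 falls and a median of -0.33, and over all genes 8.90% rose and 12.8% fell. By adjusted p alone, 9 of the 10 class I genes were higher with TCE-5002 and none was lower, at a median of 0.72. Of the 33 others 8 were higher and 11 lower. With namoline 4 of the 10 were higher and none was lower, against 10 higher and 3 lower of the 33. Over all genes 36.8% passed with TCE-5002 and 35.1% with namoline, in either direction. The roles were chosen with earlier results of these data known, so these contrasts are descriptions and were not tested. TAP1, a subunit of the peptide transporter, went from 14.7 and 15.2 CPM under R1881 to 47.5 and 46 with the combination (log2 fold change 1.62 ± 0.14 SE, adjusted p = 3.4e-07). It was at 28 and 25.7 CPM with namoline and 22.3 and 26.8 with TCE-5002, between the R1881 and combination libraries. HLA-B, a classical class I heavy chain, was at 30.2 and 34.2 CPM under R1881, 30.7 and 25.7 with namoline, 57 and 65.5 with TCE-5002 and 71.2 and 76.5 with the combination (1.18 ± 0.13, adjusted p = 4.2e-06). The namoline libraries overlapped the R1881 libraries for HLA-B, and both groups with TCE-5002 lay above them. PSMB8, the immunoproteasome subunit LMP7, was at 2.25 and 3.06 CPM under R1881, 6.51 and 6.6 with namoline, 3.52 and 4.88 with TCE-5002 and 8.64 and 7.77 with the combination. It rose with namoline (1.31 ± 0.24) and with the combination (1.62 ± 0.24). PSMB9 also passed the threshold with the combination (1.69 ± 0.68, adjusted p = 0.049) at under 1 CPM, a call that was lost under 7 of the 14 alternatives in which it was tested.

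HLA-C, another classical heavy chain, and HLA-E, the non-classical ligand of NK receptors, changed by 0.80 ± 0.13 and 0.93 ± 0.12 with the combination, both with an adjusted p under 0.05 but under 2-fold. HLA-C was at 105 and 127 CPM under R1881 and 197 and 215 with the combination, and HLA-E at 39.2 and 39.1 and 70.6 and 81. B2M did not follow the heavy chains under the combination, with 259.9 and 258 CPM (0.06 ± 0.13, adjusted p = 0.74). With TCE-5002 alone HLA-C changed by 0.72 ± 0.13, HLA-E by 0.50 ± 0.12 and B2M by 0.58 ± 0.13. Each had an adjusted p under 0.05 and stayed under 2-fold. HLA genes are polymorphic and similar to each other, so their counts depend on how the aligner placed reads.

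The partner of TAP1 moved the other way. TAP2 was at 10.4 and 12.6 CPM in C4-2 under R1881, 16.5 and 17.6 with namoline, 17.2 and 19.3 with TCE-5002 and 6.65 and 4.88 with the combination. It lay above the R1881 libraries under each single inhibitor and below them under the combination (-1.01 ± 0.19 SE, adjusted p = 4.5e-04), and the interaction was -2.24 ± 0.26. The combination change sat at the 2-fold limit and was lost under 8 of 15 alternatives, with values between -1.25 and -0.79, while 32.3% of the TAP2 exon bases are shared with an overlapping gene model on the same strand. TAPBP, which bridges the transporter to class I molecules, was at 84 and 88.8 CPM under R1881, 132 and 155 with TCE-5002 and 74.3 and 72.6 with the combination, with no change of 2-fold against R1881 and an interaction of -1.46 ± 0.17 that was lost under GC correction.

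**Figure D3:**
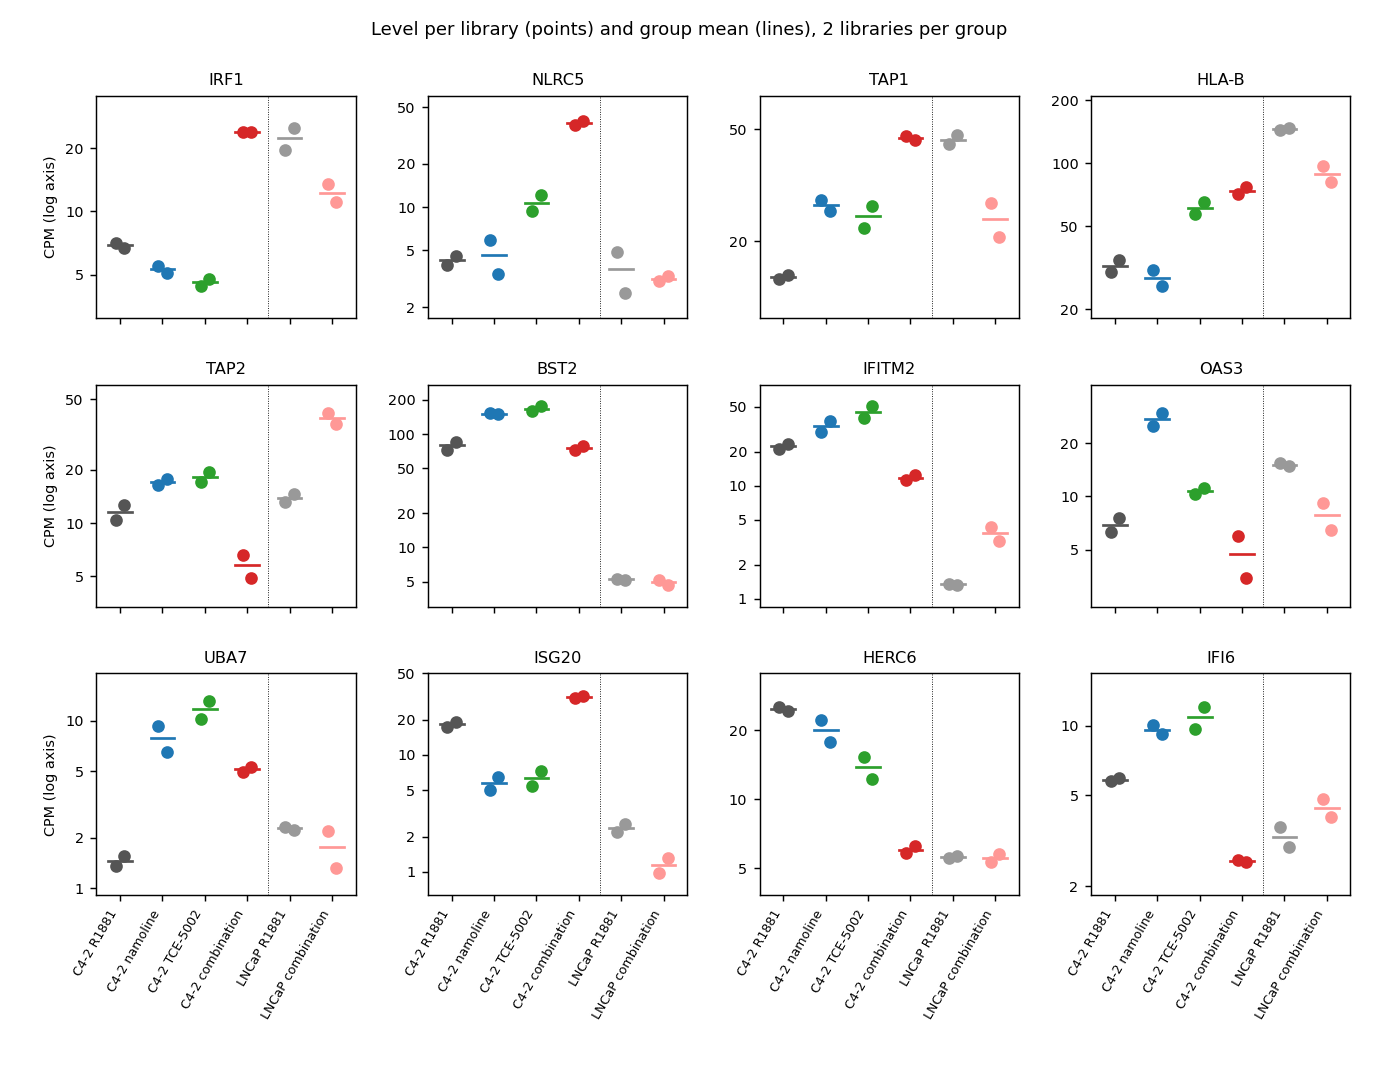
CPM on a log axis in each library (points) with group means (lines) for 12 genes in the 6 groups. IRF1, NLRC5, TAP1 and HLA-B are highest among the C4-2 groups under the combination, TAP2, BST2, IFITM2, OAS3 and IFI6 are higher under the single inhibitors than under the combination, and IRF1, TAP1 and TAP2 move in the other direction in the libraries labelled LNCaP.

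OAS1 and OAS3, enzymes that make the signal activating RNase L, rose with namoline in C4-2, and OAS2 and OASL were too low to be tested. OAS3 was at 6.28 and 7.54 CPM in C4-2 under R1881, 25 and 29.6 with namoline, 10.3 and 11.2 with TCE-5002 and 5.97 and 3.44 with the combination. It rose with namoline (log2 fold change 1.98 ± 0.21 SE, adjusted p = 3.5e-06), while the combination libraries lay below the R1881 libraries, a difference of -0.56 ± 0.23 that did not pass the threshold. OAS1 went from 0.937 and 0.975 CPM to 3.32 and 3.0 with namoline (1.70 ± 0.32) and to 0.454 and 0.376 with the combination (-1.21 ± 0.43, adjusted p = 0.029), and the fall was lost under 6 of 15 alternatives. The interactions of OAS1 and OAS3 were -3.75 ± 0.50 and -3.18 ± 0.30. MX1, a dynamin-like GTPase that blocks viral nucleocapsids, was at 3.42 and 3.19 CPM under R1881, 4.77 and 8.1 with TCE-5002 and 3.41 and 3.26 with the combination, with no change past the threshold in C4-2 against R1881 and an interaction of -1.31 ± 0.38 that was lost without the second TCE-5002 library. The MX1 change with TCE-5002 was 0.95 ± 0.26 with both TCE-5002 libraries and 1.28 without the first one.

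The IFIT genes were low in C4-2, and none rose under any treatment. IFIT5 was at 4.78 and 2.8 CPM in C4-2 under R1881 and 1.42 and 1.57 with the combination, where it fell (-1.39 ± 0.33 SE, adjusted p = 0.0023), and the call was lost without the first R1881 library. IFIT1 fell with the combination (-2.98 ± 1.02, adjusted p = 0.023) from 28 counts over both R1881 libraries to 3, a ratio of 8.53 with a 95% exact binomial interval of 2.64 to 43.9 that covers counting error only. That call was lost without the first R1881 library and without either combination library. IFIT2 was at 2.81 and 2.93 CPM under R1881 and 0.933 and 0.59 with TCE-5002, where it fell (-1.90 ± 0.34). IFIT3 had no change past the threshold in C4-2, with 0.656 and 1.3 CPM under R1881 and 2.78 and 1.2 with namoline.

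Of the other interferon-induced genes, ISG20, an RNA exonuclease, fell under each inhibitor alone and not under both. Its level was 17.5 and 19.2 CPM under R1881, 4.97 and 6.54 with namoline, 5.39 and 7.29 with TCE-5002 and 31 and 32.3 with the combination. The log2 fold changes were -1.69 ± 0.19 and -1.53 ± 0.18 with the single inhibitors and 0.76 ± 0.17 with the combination, which gave the largest positive interaction among the 43 genes tested (3.98 ± 0.26, adjusted p = 7.9e-09). IFI6, a mitochondrial and endoplasmic reticulum protein, was at 5.76 and 5.92 CPM under R1881, 10.1 and 9.18 with namoline, 9.74 and 12.1 with TCE-5002 and 2.61 and 2.57 with the combination. It was higher by less than 2-fold with namoline (0.71 ± 0.19) and with TCE-5002 (0.90 ± 0.19). It fell under the combination (-1.19 ± 0.22), with an interaction of -2.80 ± 0.28. IFI35, a binding partner of NMI, declined from 21 and 20.4 CPM to 9.49 and 8.89 with the combination (-1.20 ± 0.15, adjusted p = 1.0e-05). IFI27 stayed at 1.76 CPM or less in C4-2, with no change past the threshold against R1881 and an interaction of 2.09 ± 0.64 that was lost without the first combination library. IFI44 and SAMD9, an antiviral translation inhibitor, stayed at 1.60 CPM or less in C4-2 with no change past the threshold against R1881. The SAMD9 change with TCE-5002 was -1.28 ± 0.49 with both TCE-5002 libraries and -2.01 without the first one.

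The double-stranded RNA sensors and the editing enzyme did not change past the threshold in any comparison against R1881 in which they were tested. IFIH1, which encodes MDA5, was at 10.5 and 11.8 CPM in C4-2 under R1881, 15.5 and 16.3 with namoline and 9.66 and 8.45 with the combination, with an interaction of -1.24 ± 0.26 that was lost without the first TCE-5002 library. DHX58, the regulator LGP2, lay between 5.70 and 7.51 CPM in all 8 C4-2 libraries. DDX60, a helicase, was at 6.47 and 6.44 CPM under R1881 and 4.15 and 3.95 with the combination (-0.70 ± 0.20). ADAR, which edits double-stranded RNA and keeps it from the sensors, was at 401 and 408 CPM under R1881 and 229.5 and 215 with TCE-5002 (-0.86 ± 0.10, adjusted p = 1.8e-05), and at 333 and 339 CPM with the combination.

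In the ISG15 pathway, the activating enzyme UBA7 rose under all 3 treatments of C4-2. UBA7 was at 1.36 and 1.56 CPM under R1881, 9.24 and 6.48 with namoline, 10.3 and 13.1 with TCE-5002 and 4.94 and 5.32 with the combination. The log2 fold changes were 2.42 ± 0.26, 3.01 ± 0.25 and 1.79 ± 0.27 in that order, and the interaction was -3.63 ± 0.34. ISG15, the ubiquitin-like modifier itself, was at 17 and 15.3 CPM under R1881 and 29.3 and 30.8 with the combination (0.86 ± 0.17, under 2-fold). HERC6, an E3 ligase of the same family as the ISG15 ligase HERC5, was at 25.3 and 24.3 CPM under R1881, 22.2 and 17.9 with namoline, 15.3 and 12.2 with TCE-5002 and 5.79 and 6.26 with the combination. Its fall under the combination was large and well resolved (-2.07 ± 0.18, adjusted p = 3.0e-07). HERC5 fell with namoline, from 11.2 and 9.56 to 5.51 and 4.86 CPM (-1.02 ± 0.20), a call lost under 4 of 15 alternatives, and was at 10.3 and 13.7 CPM with the combination. USP18, which removes ISG15 and damps interferon receptor signalling, fell under the combination from 17.2 and 15.2 to 7.33 and 6.7 CPM (-1.23 ± 0.16).

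PARP9 and DTX3L form a heterodimer that modifies histones and viral proteins, and PARP14 is a related ADP-ribosyltransferase. PARP9 fell under the combination from 36.2 and 35.8 to 17.5 and 16.1 CPM (-1.13 ± 0.14 SE, adjusted p = 1.3e-05), and its partner DTX3L, which overlaps it by 217 exon bases on the opposite strand, was at 46.3 and 47.9 CPM under R1881 and 38.9 and 37.3 with the combination (-0.33 ± 0.12). PARP14 was at 56.2 and 54.8 CPM under R1881, 33.3 and 27.3 with TCE-5002 and 74.6 and 73.2 with the combination, and its interaction was 1.49 ± 0.18.

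All 4 membrane restriction factors had a negative interaction past the threshold, as did 18.6% of all genes. BST2 was at 73 and 85.7 CPM in C4-2 under R1881, 152 and 149 with namoline, 159 and 175 with TCE-5002 and 72.8 and 78.8 with the combination. It rose with TCE-5002 (log2 fold change 1.08 ± 0.12 SE), was just under 2-fold with namoline (0.91 ± 0.12), and lay at the R1881 level under both (-0.09 ± 0.12). IFITM2, which blocks viral fusion in endosomes, was at 21.3 and 23.3 CPM under R1881, 39.9 and 50.4 with TCE-5002 and 11.2 and 12.3 with the combination. It rose with TCE-5002 (1.02 ± 0.15), and the combination change was -0.94 ± 0.16, just under 2-fold. The rises of BST2 and IFITM2 were both lost under GC correction and without the first R1881 library, and that of IFITM2 also without the second TCE-5002 library. IFITM1, the family member at the cell surface, fell under the combination from 2.34 and 1.5 to 0.625 and 0.25 CPM (-2.14 ± 0.43). IFITM3 was at 41.8 and 41.6 CPM under R1881, 61.9 and 84.5 with TCE-5002 and 37.8 and 38.4 with the combination, with an interaction of -1.59 ± 0.20. The IFITM genes are similar to each other and IFITM1 and IFITM2 share 351 exon bases in the annotation. Fragments were counted without regard to strand and only where they fell on a single gene, so those over shared exon bases entered neither gene. For HLA-B, PSMB8 and IFITM3, 18%, 21.2% and 21.3% of the exon bases are shared with a gene model on the opposite strand.

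Without any inhibitor, the 48 genes differed widely between the lines. Under R1881, 17 of 43 tested genes were higher in C4-2 than in the libraries labelled LNCaP and 7 were lower, where 24.3% of all genes were higher and 26.2% lower, and the median was 0.75 against 0.00 over all genes. PARP14 was at 56.2 and 54.8 CPM in C4-2 and 0.466 and 1.14 CPM in the libraries labelled LNCaP (log2 difference 6.12 ± 0.19 SE, adjusted p = 2.4e-20). IRF7 was at 1.49 and 0.911 CPM there, a difference of 5.51 ± 0.19, and PSMB8 had 2 counts over both libraries against 95 in C4-2, a ratio of 56.2 with an exact interval of 15.1 to 471 for counting error only. IFI35 and IFI44 (48 against 3 counts) were also higher in C4-2, as were BST2 (3.94 ± 0.13), IFITM2 (4.08 ± 0.20) and IFITM3 (3.65 ± 0.14). The genes higher in C4-2 further included OAS1, ISG20, IFIH1, DHX58, ISG15, HERC6, USP18, PARP9 and DTX3L, with differences from 1.08 for DTX3L to 3.06 for DHX58. The call for OAS1 was lost with DESeq2, without either C4-2 library and without the first LNCaP library.

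The 7 genes lower in C4-2 included HLA-B, TAP1 and IRF1, which were described above as rising with the combination against the same C4-2 R1881 libraries. HLA-B was at 145 and 148 CPM in the libraries labelled LNCaP under R1881 against 30.2 and 34.2 in C4-2 (-2.16 ± 0.10 SE, adjusted p = 5.1e-17). TAP1 was at 44.4 and 47.7 against 14.7 and 15.2 CPM (-1.59 ± 0.13) and IRF1 at 19.5 and 25 against 7.08 and 6.7 CPM (-1.66 ± 0.16). IFIT5, at 40.3 and 38.3 against 4.78 and 2.8 CPM, had the largest difference in this direction (-3.30 ± 0.17). IFIT3 (-1.53 ± 0.37), SAMD9 (-1.38 ± 0.31) and OAS3 (-1.11 ± 0.20) were the other genes lower in C4-2, and the call for OAS3 was lost without the first C4-2 library. Of 12 prostate epithelial markers, 10 were higher in C4-2 at the same time, and the part of that difference in these values was not tested.

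In the libraries labelled LNCaP, the combination raised IFITM2 and TAP2 and lowered IFIT2, MX1 and IFIT3. TAP2 went from 13.1 and 14.7 CPM under R1881 to 41.7 and 36.2 CPM (log2 fold change 1.54 ± 0.14 SE, adjusted p = 2.1e-11), and IFITM2 from 1.35 and 1.32 to 4.3 and 3.25 CPM (1.55 ± 0.32). IFIT2 fell from 2.75 and 1.59 to 0.546 and 0.152 CPM (-2.61 ± 0.52), MX1 from 2.42 and 3.28 to 1.03 and 0.508 CPM (-1.85 ± 0.39) and IFIT3 from 2.93 and 2.64 to 1.09 and 0.609 CPM (-1.67 ± 0.38). The 12 prostate epithelial markers summed to 1044 and 975 CPM under R1881 and 568 and 440.1 with the combination. Of these markers 3 fell and none rose, where 11.3% of all genes fell and 7.40% rose. Their part in the changes described here was not tested. These 5 gene calls were made under every alternative tried. Without the first combination library, whose header named namoline alone, 9 genes passed, the same 5 and HERC5, IFIT5, OAS3 and TAP1. Leaving out the second R1881 library also gave 9 genes, the same 5 and DHX58, HERC5, IFIT5 and SAMD9. OAS1, IFI44, DHX58, PSMB8 and PSMB9 were too low to be tested in these libraries.

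IRF1, TAP1, HLA-B and NLRC5, which rose in C4-2, did not rise in the libraries labelled LNCaP. IRF1 was at 19.5 and 25 CPM under R1881 and 13.5 and 11.1 with the combination (-0.80 ± 0.16, adjusted p = 5.5e-05), and TAP1 at 44.4 and 47.7 and 27.3 and 20.7 (-0.89 ± 0.13). HLA-B was at 145 and 148 and 96.4 and 81.5 CPM (-0.66 ± 0.10), and NLRC5 at 4.89 and 2.5 and 3.03 and 3.3 CPM with an adjusted p of 0.66. For IRF1, TAP1 and HLA-B the combination libraries lay below the R1881 libraries, by less than 2-fold on average.

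Tested directly, the combination effect differed between the lines for 20 of 43 genes, more positive in C4-2 for 10 and more negative for 10, where 11.5% of all genes were more positive and 13.9% more negative. Without the first combination library labelled LNCaP the difference was past the threshold for 21 genes, 11 and 10 in the respective directions. The differences in log2 fold change, C4-2 minus the libraries labelled LNCaP, were 3.28 ± 0.31 SE for NLRC5, 2.51 ± 0.22 for IRF1, 2.46 ± 0.17 for TAP1, 2.08 ± 0.42 for UBA7 and 1.79 ± 0.45 for MX1. On the negative side they were -3.44 ± 0.98 for IFIT1, -2.62 ± 0.53 for IFITM1, -2.59 ± 0.22 for TAP2, -2.53 ± 0.29 for IFITM2 and -2.22 ± 0.32 for IFI35. Of the 38 genes tested in both lines, 15 had an adjusted p under 0.05 in each, 6 with the same sign (ADAR, DTX3L, IFIT2, IFIT5, PARP9 and STAT2) and 9 with opposite signs (HLA-B, HLA-E, IFI35, IFITM2, IRF1, ISG20, TAP1, TAP2 and USP18). Over all 15283 genes tested in both lines, 31.2% had an adjusted p under 0.05 in each, 17.5% with the same sign and 13.6% with opposite signs. TAP2 alone was past the threshold in both, in opposite directions.

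**Figure D4:**
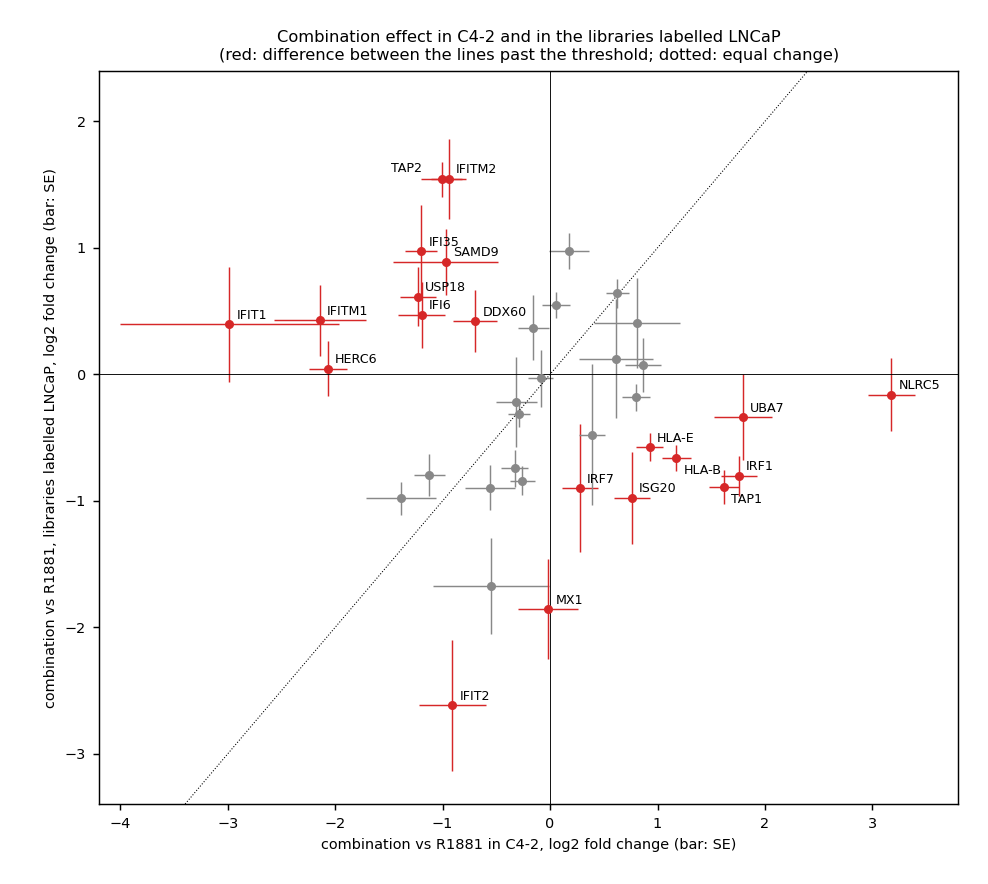
Log2 fold change under both inhibitors, in C4-2 on the horizontal axis and in the libraries labelled LNCaP on the vertical axis, with SE bars for the 38 genes tested in both, in red where the difference between the lines passed the threshold. NLRC5, IRF1, TAP1, UBA7, HLA-B and HLA-E sit to the lower right and TAP2, IFITM2, IFI35 and IFIT1 to the upper left.

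Of the genes upstream, 12 of 15 were over 1 CPM on average in C4-2 under R1881. IFNLR1, the receptor of type III interferon, had 0 and 1 counts there and was at 13.7 and 13.6 CPM in the libraries labelled LNCaP. Among these 15 interferon receptor and signalling genes, none of the 13 tested rose or fell under the combination in C4-2. Under each inhibitor alone 1 fell. Of all genes 8.90% rose and 12.8% fell under the combination, 6.90% fell with namoline and 6.83% with TCE-5002. IFNAR1, a subunit of the type I receptor, was at 119 and 128 CPM in C4-2 under R1881 and 118 and 113 with the combination. JAK1, the kinase shared by type I and type II receptors, was at 31 and 35 CPM under R1881 and 53.7 and 66.6 with the combination (0.84 ± 0.14 SE, under 2-fold), with an interaction of 1.85 ± 0.20. JAK2 fell with namoline, from 35.3 and 34.7 to 19.7 and 15.4 CPM (-1.01 ± 0.15).

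Of 17 genes of the nucleic acid sensing pathway, 13 were tested in C4-2. Under the combination 1 rose and 2 fell, where 8.90% of all genes rose and 12.8% fell. IRF5, a transcription factor downstream of Toll-like receptors, rose from 21.4 and 26.5 to 58.9 and 62.6 CPM (1.32 ± 0.15 SE). STING1, the adaptor of cytosolic DNA sensing, fell from 6.56 and 6.24 to 1.02 and 1.06 CPM (-2.64 ± 0.28) and also in the libraries labelled LNCaP, from 5.91 and 5.83 to 2.61 and 2.08 CPM (-1.27 ± 0.26). IKBKE, a kinase of IRF3, fell from 3.33 and 2.93 to 1.42 and 1.0 CPM (-1.39 ± 0.29). RIGI, the sensor of short RNA with a triphosphate end, was at 5.81 and 7.8 CPM under R1881 and 11.7 and 10.4 with the combination (0.69 ± 0.21). SAMHD1, which depletes nucleotides, rose in the libraries labelled LNCaP from 47.3 and 47.7 to 100.0 and 105 CPM (1.17 ± 0.11).

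Of 43 further interferon-stimulated genes, 32 were tested in C4-2, with 3 rises and 3 falls under namoline, 4 and 3 under TCE-5002 and 4 and 4 under the combination. In the libraries labelled LNCaP 2 of 29 rose and 1 fell. TRIM22, an antiviral ubiquitin ligase, was at 0.0937 and 0.195 CPM under R1881 and 7.67 and 8.83 with the combination (5.82 ± 0.43 SE), and it also rose under each inhibitor alone, to 2.78 and 2.04 CPM with namoline and 0.726 and 1.34 with TCE-5002. GBP2, a guanylate-binding protein, had 2 counts over both R1881 libraries and 39 with the combination, a ratio of 21.3 with an exact interval of 5.52 to 182 for counting error only. CMPK2 (-1.85 ± 0.38) and SP110 (-1.40 ± 0.43) had the largest falls under the combination among those at 1 CPM or more, at levels of 1.69 and 1.95 and 1.55 and 1.56 CPM under R1881. LAMP3 fell under the single inhibitors, from 40.8 and 46 CPM to 3.26 and 1.14 with namoline and 4.77 and 4.56 with TCE-5002, and was at 31.1 and 37.6 CPM with the combination, an interaction of 7.16 ± 0.36. LAMP3 rose under both inhibitors in the libraries labelled LNCaP, from 6.8 and 7.65 to 20.9 and 12.8 CPM (1.27 ± 0.19), and OGFR, the opioid growth factor receptor, fell there from 125 and 122 to 32.3 and 21.8 CPM (-2.14 ± 0.13).

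Of 24 other antigen presentation genes, 20 were tested in C4-2. None rose or fell under either inhibitor alone, and under the combination RFXAP, a subunit of the RFX complex at MHC promoters, fell from 19.4 and 16.3 to 7.5 and 5.82 CPM (-1.45 ± 0.19 SE) and none rose. In the libraries labelled LNCaP 3 of 22 rose and 1 fell. The genes that rose were ERAP2, a peptide-trimming aminopeptidase, from 1.54 and 2.05 to 6.79 and 6.86 CPM (1.98 ± 0.26), HLA-DRB1, from 4.33 and 4.74 to 12.5 and 13.1 CPM (1.55 ± 0.19), and CALR, a chaperone of class I assembly, from 553 and 550.3 to 1369.8 and 1295 CPM (1.33 ± 0.11). The gene that fell was HLA-G, from 0.978 and 1.37 to 0.242 and 0.356 CPM (-1.87 ± 0.57). The inhibitors act on the enzymes, so the messengers of their targets do not check the labels. In C4-2 KDM1A was at 75.2 and 74.3 CPM under R1881 and 72.5 and 74.1 with the combination, and KDM7A rose from 101 and 97.5 to 243 and 283 CPM (1.38 ± 0.12).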

How the data were processed

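Polyadenylated RNA was sequenced as paired reads, which the authors trimmed with Trim Galore and aligned to GRCh38 with STAR, per the labels and the study's methods. They then counted fragments over Ensembl release 83 genes with featureCounts 1.5.0-p1, and the deposited files hold these raw counts, 1 library each, per the file headers. The study called its replicates biological.

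Groups were taken from the sample titles. From the counts, R 4.3.3 and edgeR 4.0.16 were used with default expression filtering, TMM scaling and a robust quasi-likelihood test. The 4 C4-2 groups shared a fit, as did the pair of groups labelled LNCaP, and both lines under R1881 and the combination shared the fit for differences between lines. SE values come from the same test. CPM used TMM-scaled totals over all 12 libraries. Adjusted p-values run over all tested genes. Scripts were tested on simulated data. Alternatives were RLE scaling, no filter, DESeq2 1.42.0, the replicate block, GC correction, other libraries in the fit, no fold limit and each library left out.

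The 48 genes, the roles, the lists and the motifs were chosen with earlier results of these data known. All 48 genes are named; the largest changes at 1 CPM or more in the higher group and fixed genes of each list are given with values. With 2 libraries a group, the fits rest on the spread shared by their groups, and depth leaves genes under about 1 CPM with wide errors.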

Additional observations from a re-analysis of the deposited data

Results flagged for a closer look

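The combination effect, tested as a difference between C4-2 and the libraries labelled LNCaP with edgeR, separated the lines for 20 of the 43 genes tested. The log2 difference was positive for NLRC5 (3.28), IRF1 (2.51), TAP1 (2.46), UBA7 (2.08), MX1 (1.79), HLA-B (1.79), ISG20 (1.68), IFIT2 (1.66), HLA-E (1.45) and IRF7 (1.14). It was negative for IFIT1 (-3.44), IFITM1 (-2.62), TAP2 (-2.59), IFITM2 (-2.53), IFI35 (-2.22), HERC6 (-2.17), SAMD9 (-1.91), USP18 (-1.90), IFI6 (-1.71) and DDX60 (-1.17). The call was lost under at least 1 alternative for DDX60, HLA-E, IFIT1, IFIT2 and IRF7, and the other 15 were called under every alternative tried. Line and culture cannot be told apart in this design.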

How the results depend on the processing

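Of the 98 calls made on the 48 genes over the 7 comparisons, none changed sign under any alternative and 79 were made under all in which they could be tested. The number of genes past the threshold moved by more than 1.5 times in these cases. With adjusted p alone and no fold limit it was 17 of 43 for namoline, 28 of 43 for TCE-5002, 28 of 43 for both inhibitors in C4-2 and 22 of 38 for both in the libraries labelled LNCaP. Leaving out each library in turn gave 5 to 16 for TCE-5002, where 16 came without the first TCE-5002 library, and 5 to 9 for the libraries labelled LNCaP, where 9 came without the second R1881 or the first combination library. In the latter comparison GC correction gave 8, GC correction with the replicate block 8, and a fit with all 12 libraries 8, and the median of the genes tested went from -0.17 to 0.01 with GC correction. The cause was not tested. A fit that leaves out 1 library assumes that the remaining one varies like the other groups. The replicate block left the counts at 6, 6, 17, 20, 5, 24 and 20 in the 7 comparisons and changed no call. Deviations of same-numbered libraries from their group means correlated at 0.06 between the groups labelled LNCaP and at -0.02 to 0.44 between C4-2 groups, over 0.1 in 5 of 6 pairs, so the numbers were not taken as pairs and pairing within C4-2 was not settled.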

Other observations

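Genes of small RNA silencing and of endogenous retroviruses lie upstream of interferon responses in other tumours after loss of KDM1A. Of 10 genes of the RNA-induced silencing complex and microRNA processing, all tested, none rose or fell under any treatment of C4-2. Over all genes 5.07% to 8.90% rose and 6.83% to 12.8% fell across these treatments. In the libraries labelled LNCaP, PRKRA, a partner of Dicer, rose with the combination from 51.9 and 56.1 to 101 and 107 CPM (log2 fold change 1.00 ± 0.11 SE, adjusted p = 7.6e-10). AGO2, the slicer of that complex, was at 118 and 114 CPM in C4-2 under R1881 and 136 and 153 with the combination (0.28 ± 0.12).

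Of 8 genes derived from endogenous retroviruses, 4 were tested in C4-2. ERVMER34-1 rose under both single inhibitors, from 9.09 and 10 CPM under R1881 to 29.8 and 32.6 with namoline (1.70 ± 0.15) and 25.1 and 21.2 with TCE-5002 (1.28 ± 0.15), and was at 15.2 and 14.5 CPM with the combination. ERVH48-1 rose with the combination, from 0.562 and 0.26 to 1.99 and 1.19 CPM (1.85 ± 0.57). ERVK3-1 was at 12.3 and 11.4 CPM under R1881 and 13.4 and 12.5 with the combination. Counts per gene do not cover the repeat copies outside annotated genes, so the retroviral transcripts as a whole were not measured.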
